A study of Homo sapiens with 32 samples.

Results

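The genes described here encode proteases that cut the amyloid precursor protein, together with that protein and its relatives. There were 8 of them, chosen by name, among 28278 gene symbols in the count tables and 60107 Ensembl genes in the knockdown table, and all 8 were present in both. BACE2 led to the choice because it had the lowest fold change of all genes in STAG1 KO cells, so its values in that contrast are given as a description and without a test. Its paralog BACE1, the substrates APP, APLP1 and APLP2, the gamma-secretase subunits PSEN2 and NCSTN, and the alpha-secretase ADAM10 were then taken alongside it. They were chosen with earlier results of these data known. Counts of members called are therefore descriptions, also where the share over all genes is given beside them.

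RNA was sequenced from A673, an Ewing sarcoma cell line driven by EWS::FLI1, and from the Ewing sarcoma lines SK-N-MC and A4573. STAG1 and STAG2 are alternative subunits of cohesin, the ring that folds chromatin into loops, and EZH2 and SUZ12 are subunits of PRC2, the complex that deposits the repressive mark H3K27me3. The WT clone was A673 carrying an inducible Cas9 at AAVS1 and no further edit, and every A673 KO clone was edited in it, so the KO cells share that Cas9 while the parental line lacks it. Experiment 1 held 2 libraries of the WT clone, 1 of parental cells and 2 of STAG2 KO cells. Experiment 2 held 2 of the WT clone, 1 of parental cells and 3 each of STAG2 KO, EZH2 KO and SUZ12 KO cells, and experiment 3 held 1 of the WT clone, 1 of parental cells and 3 of STAG1 KO cells. In experiment 4, A673 cells received either a mock transfection (siC) or an siRNA that targets STAG2 (siSTAG2), with 3 libraries each. SK-N-MC cells with STAG2 were compared with a STAG2 KO, and A4573 cells, which by the study's account lack STAG2 as the starting line, with a STAG2 knock-in (KI), with 1 library per arm. KO libraries of a group carry different clone numbers, whereas WT clone libraries are repeats of a single clone, so p-values measure the spread between these libraries. EZH2 KO and SUZ12 KO were tested in a single fit over all libraries of experiment 2. Their p-values thus also rest on the spread of its STAG2 KO clones.

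Depth per library was 15734628 to 20663679 counts in the 22 A673 clone and parental libraries, 29322507 to 32261248 in the 4 SK-N-MC and A4573 libraries, and 6852340 to 8184632 recovered reads in the 6 knockdown libraries. The targeted transcript was lower in STAG2 KO (log2 fold change -1.81), EZH2 KO (-1.98), SUZ12 KO (-1.90) and siSTAG2 cells (-2.72), with no overlap between groups. STAG1 mRNA was 15.1 and 32.8 CPM in the libraries labelled STAG1 KO 5 and 7, but 61.5 CPM in the library labelled STAG1 KO 1, between the 57.3 and 67.8 CPM of its controls. Of 6 Ewing sarcoma markers, 5 were expressed in every library, and CD99 was listed at 0 in all count tables but at 3723 to 6707 normalized reads in the knockdown. Of the epithelial markers, CDH1 did not exceed 0.452 CPM and EPCAM did not exceed 2.26 CPM in any A673 clone library, while KRT8 reached 870.8 CPM. The summed level of the 4 epithelial markers was 16.2 to 39.1 CPM in all controls, 288 to 490 CPM in EZH2 KO and 173 to 874 CPM in SUZ12 KO cells, and its part in the results below was not tested. Such sums follow the markers with the most reads and do not show that a whole list moved. Over the 22 A673 clone and parental libraries SYT1 (82.9 to 317.2 CPM) led the neuron markers. CCND1 (1328 to 3562 CPM) led the Ewing sarcoma markers. Melanocyte markers stayed low, with PMEL up to 4.61 CPM and MITF up to 2.76 CPM. STAG2 KO clone 5 of experiment 2 differed most from its group, and values without it are given where they change.

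Amyloid precursor protein is a single-pass membrane protein that is shed by competing proteases. ADAM10 cuts it at the alpha site, inside the amyloid-beta stretch, whereas BACE1 cuts at the beta site, and gamma-secretase then cuts the remaining stub within the membrane to release amyloid-beta. Gamma-secretase is a complex in which PSEN2 can serve as catalytic subunit, together with nicastrin (NCSTN), APH1 and PEN-2, and it also cuts Notch receptors and many other membrane stubs. BACE2 cuts APP mostly within the amyloid-beta stretch and is known for processing PMEL in pigment cells and CLTRN in pancreatic beta cells.

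In GENCODE 44 on GRCh38, BACE2 lies at chr21:41167801-41282530 on the plus strand, and shares no exonic base with another gene. APP lies on the same chromosome, at chr21:25880535-26171128 on the minus strand. BACE1 lies at chr11:117285232-117316259 (minus), APLP2 at chr11:130068147-130144811 (plus), APLP1 at chr19:35867899-35879792 (plus), PSEN2 at chr1:226870184-226927726 (plus), NCSTN at chr1:160343294-160358952 (plus) and ADAM10 at chr15:58588809-58749791 (minus). By the study's methods the libraries carry no strand. Reads of BACE1 thus cannot be separated from those of BACE1-AS and RNF214 where their exons overlap. The same holds for APLP1 and NPHS1, NCSTN and COPA, APP and APP-DT, and ADAM10 and ENSG00000259250. PSEN2 shares more exonic bases than any other member, with ENSG00000288674, a protein-coding gene on the same strand, so how the counting divided these reads bears on every PSEN2 value.

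RefSeq promoter sequences on GRCh38.p14 were matched for 7 of the 8 genes, and not for BACE2. Those of APLP1 and APP are shown because the former transcript rose and the latter fell in both EZH2 KO and SUZ12 KO cells. Each runs over 120 bases that lie upstream of the RefSeq start and outside annotated exons of that strand, at chr19:35868443-35868562 (plus) and chr21:26171129-26171248 (minus), with CpG dinucleotides in capitals. The APLP1 stretch lies within the annotated span of the gene, which begins further upstream.
APLP1: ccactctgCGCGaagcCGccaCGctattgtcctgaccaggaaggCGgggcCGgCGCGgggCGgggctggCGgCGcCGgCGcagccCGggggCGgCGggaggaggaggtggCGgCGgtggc
APP: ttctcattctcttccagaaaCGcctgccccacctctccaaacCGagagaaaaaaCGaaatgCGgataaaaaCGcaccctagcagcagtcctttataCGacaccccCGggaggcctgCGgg
In the 250 bases before the start there were 30 CpG dinucleotides at APLP1, 31 at PSEN2, 37 at APLP2, 24 at NCSTN and 25 at ADAM10, and 11, 2 and 4 at the starts of BACE1, against a median of 11 over 34943 promoters of this length. APP had 12 at the outermost of its starts and 34 at another. The windows of PSEN2, of the BACE1 start with 11 and of the APP start with 34 began inside annotated exons. The tandem motif GGAAGGAA, searched on both strands, was found before the start of ADAM10 and of no other matched gene, and 3.06% of all promoters held it.

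Per kilobase of exon, the mean level over the 8 control libraries was highest for APP, at 190.6 CPM per kb, followed by APLP2 (48.6), ADAM10 (10.9), NCSTN (7.76), APLP1 (5.05), BACE1 (3.57), BACE2 (1.41) and PSEN2 (0.429). The divisor joined all annotated exons of a gene, from 3539 bases (APLP1) to 16397 bases (PSEN2). The order depends on this choice of length. Neighbours in this order overlapped between single control libraries from ADAM10 down to BACE2. The ranges of APP (153.2 to 218) and APLP2 (43.8 to 54.1) were apart from each other and from all others. That of BACE2 ran from 0.228 to 3.84 CPM per kb, a 16.8-fold span, and also reached that of PSEN2 (0.283 to 0.566).

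BACE2 differed strongly between libraries of the same genotype. In experiment 1 it was 7.47 and 8.37 normalized CPM in the WT clone, 16.9 in parental cells, and 0.467 and 0.904 in the STAG2 KO libraries 5 and 24. In experiment 2 it was 2.85 and 2.20 CPM in the WT clone, 10.5 in parental cells, and 2.47, 27.6 and 0.111 in STAG2 KO clones 3, 5 and 2. The EZH2 KO clones 1, 2 and 3 had 0.815, 0.110 and 0.474 CPM, whereas the SUZ12 KO clones 1, 2 and 3 had 51.1, 9.04 and 1.41 CPM. Thus all EZH2 KO libraries were below every control of their experiment, and STAG2 KO and SUZ12 KO libraries lay on both sides of the controls. In experiment 3 it was 23.0 CPM in the WT clone, 37.0 in parental cells, and 0.191, 0 and 0.357 in the libraries labelled STAG1 KO 1, 5 and 7. These last values rest on 3, 0 and 7 reads, against 426 and 778 in the controls.

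**Figure D1:**
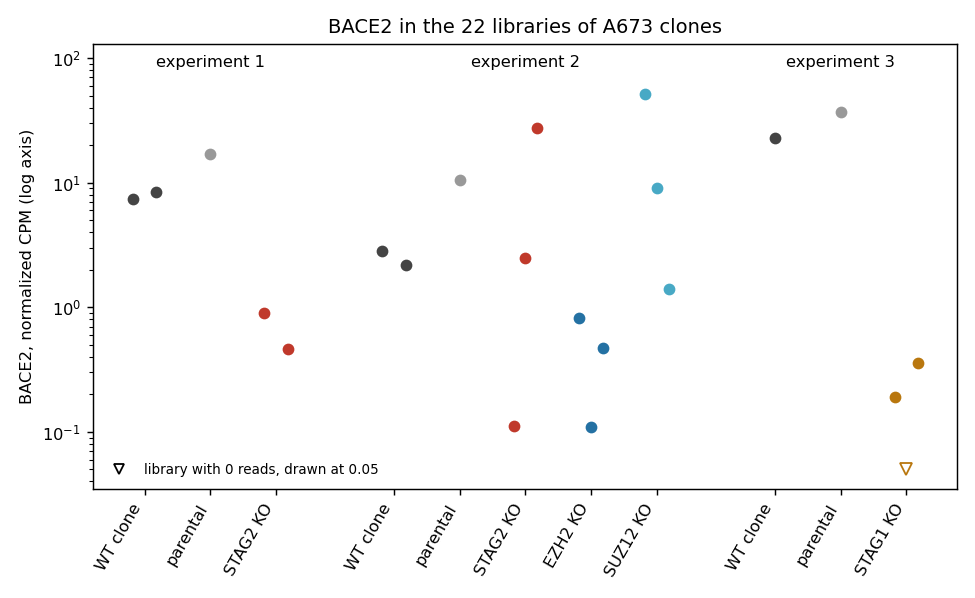
BACE2 in each of the 22 libraries of A673 clones and parental cells, as normalized CPM on a log axis, by group and experiment, with 1 point per library and the STAG1 KO library without reads drawn as an open triangle. Of 14 KO libraries, 9 lie under 1 CPM and 1 (SUZ12 KO clone 1, at 51.1 CPM) lies above every control, while the 8 controls run from 2.20 to 37.0 CPM.

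Over the 8 control libraries the SD of log2 BACE2 was 1.38, larger than that of 98.76% of 10884 genes, whose median SD was 0.297. This SD includes differences between experiments and between parental cells and the WT clone. The mean of BACE2 over controls was 10.9, 5.17 and 30.0 CPM in experiments 1, 2 and 3. The SD of the other 7 members ran from 0.104 (APLP2) to 0.447 (APLP1). The controls of experiment 3 entered the choice of BACE2, so this spread is a description. Parental cells had more BACE2 than the WT clone in each experiment, by 2.13-fold, 4.15-fold and 1.61-fold in experiments 1, 2 and 3. In the comparison of WT clone with parental cells, BACE2 was the 1 member of 8 called by edgeR's quasi-likelihood test, with 2.72% of all genes called (1.76% higher, 0.96% lower), and its log2 fold change was -1.26 ± 0.21 (SE, adjusted p = 0.0164). The controls of experiment 3 are part of this fit too, so the call is not independent of the choice of BACE2. The call was lost without either WT clone library of experiment 2 (adjusted p = 0.0921 and 0.0683).

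BACE2 had the lowest log2 fold change of all genes tested in STAG1 KO cells, -7.30 or 158-fold lower. This is the value that led to its choice. Among genes called with a mean of at least 5 CPM and with no overlap between groups, FAM110C (-6.36) and ELOVL2 (-4.43) came next. Among all genes tested regardless of level, the next was PROK2 (-7.30, mean 0.415 CPM). Without the library labelled STAG1 KO 1, whose STAG1 level was that of the controls, the log2 fold change of BACE2 was -7.31.

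In STAG2 KO cells BACE2 was not called over experiments 1 and 2 together (log2 fold change -0.70 ± 1.46 SE, edgeR adjusted p = 0.82). In experiment 1 alone it fell by 3.996 on the log2 scale (adjusted p = 0.0112), while in experiment 2 alone the log2 fold change was 1.04 (adjusted p = 0.678). The difference between experiments, tested as an interaction term added after the data were seen, was 5.05 ± 2.03 (SE, edgeR unadjusted p = 0.0314, adjusted p = 0.134). This term was called for 0 of 13574 genes, so a lack of a call does not show that the experiments agree. The pooled value turned on single KO libraries. Without clone 5 of experiment 2, BACE2 fell by 2.86 (adjusted p = 0.0186), and without library 5 or 24 of experiment 1 the log2 fold change was 0.15 or 0.10 (adjusted p = 0.967 and 0.978). In EZH2 KO cells the log2 fold change was -3.36 ± 1.63 (adjusted p = 0.192) and in SUZ12 KO cells 2.05 ± 1.42 (adjusted p = 0.335). The last value rested on SUZ12 KO clone 1, without which it was 0.08. Set directly against each other, EZH2 KO was 5.41 lower than SUZ12 KO on the log2 scale, with an unadjusted p of 0.00887 and an adjusted p of 0.999 by edgeR. Bulk RNA cannot tell fewer cells expressing BACE2 from less BACE2 RNA per cell.

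In the knockdown BACE2 was 116.3, 144.7 and 108.3 normalized reads in siC libraries 1, 2 and 3, and 78.8, 85.3 and 77.3 in siSTAG2 libraries 1, 2 and 3, with no overlap, as for 35% of all genes. It fell by 0.60 on the log2(value + 1) scale (SE 0.14, limma adjusted p = 0.00303), and stayed called without any single library. In SK-N-MC cells BACE2 was scarce, at 1.04 CPM with STAG2 (34 reads) and 5.01 CPM without (151 reads). In A4573 cells it was abundant, at 115.4 CPM without STAG2 and 209.8 CPM with the KI. The log2 differences without minus with STAG2 were therefore 2.20 in SK-N-MC (95% interval 1.73 to 2.85) and -0.86 in A4573 (-0.92 to -0.80), in opposite directions. STAG2 mRNA itself was 186.5 CPM in the SK-N-MC KO and 293.9 CPM with STAG2, and 33.5 CPM in the A4573 starting line and 87.1 CPM with the KI. These intervals cover counting error only, and with 1 library per arm no test was possible.

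The paralog BACE1, the beta-secretase of neurons, varied little. It ran from 22.3 to 37.4 CPM in controls and from 25.7 to 39.6 CPM in KO libraries of all genotypes, and passed the test in none of the 5 comparisons with controls. Its largest difference from controls was in SUZ12 KO cells (33.6, 39.6 and 35.8 CPM against 26.4, 22.3 and 32.6), with groups apart and a log2 fold change of 0.48 ± 0.16 (edgeR adjusted p = 0.0552). It was past the threshold without the parental library (0.61, adjusted p = 0.0373) or without STAG2 KO clone 5 (0.48, adjusted p = 0.0274), and by DESeq2 (adjusted p = 0.0241). In A4573 cells BACE1 was 35.4 CPM without STAG2 and 74.4 with the KI, a log2 difference of -1.07, whereas in SK-N-MC it was 4.97 and 4.45 CPM.

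Loss of PRC2 subunits was accompanied by the largest called changes among the substrates and gamma-secretase subunits. In EZH2 KO cells 3 of the 8 members were called (2 higher, 1 lower), where 15.7% of all genes were called (12% higher, 3.69% lower), and in SUZ12 KO cells 4 were called (2 higher, 2 lower), where 20.6% were (14.7% higher, 5.87% lower). Both comparisons use the same 3 controls, and their values are given side by side. The median log2 fold change over the 8 members was 0.03 in EZH2 KO and 0.35 in SUZ12 KO cells, against 0.04 and 0.01 over all genes. Beside the epithelial markers, the summed fibroblast markers moved, from 569.8 to 1021 CPM in the controls to 405 to 436 CPM in EZH2 KO and 297 to 345 CPM in SUZ12 KO cells, and their part in these results was not tested. The summed neuron markers, led by SYT1, were 179.7 to 200.3 CPM in EZH2 KO and 158.6 to 172.2 CPM in SUZ12 KO cells. They were 136 to 150.8 CPM in the controls. The melanocyte markers, mainly PMEL and MITF, were 3.07 to 4.79 and 3.01 to 7.55 CPM against 0.782 to 1.004 CPM. Both sums were thus also apart from the controls, and their part was not tested. Groups were apart for 47.2% of all genes in EZH2 KO and 49.6% in SUZ12 KO cells, and for 6 of the 8 members in each.

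PSEN2, a catalytic subunit of gamma-secretase, was 8.66 and 9.29 CPM in the WT clone and 7.61 in parental cells of experiment 2. It was 34.9, 32.7 and 39.8 CPM in EZH2 KO clones 1, 2 and 3, and 29.0, 42.8 and 32.4 in SUZ12 KO clones 1, 2 and 3. Every PRC2 KO library was thus above every control. PSEN2 rose 4.40-fold in EZH2 KO (log2 fold change 2.14 ± 0.26 SE, edgeR adjusted p = 0.000418) and 4.23-fold in SUZ12 KO cells (2.08 ± 0.26, adjusted p = 0.000328), and was called in each fit that left out 1 library.

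APLP1, a relative of APP found mainly in neurons, was 12.6, 10.9 and 13.9 CPM in the WT clone and parental controls of experiment 2. It was 28.4, 17.1 and 26.6 CPM in EZH2 KO clones 1, 2 and 3, and 34.5, 49.0 and 34.5 in SUZ12 KO clones 1, 2 and 3, all higher than the controls. It rose 3.27-fold in SUZ12 KO (adjusted p = 0.0016) and 2.02-fold in EZH2 KO cells (adjusted p = 0.0316). The EZH2 KO call was lost in 5 of 12 fits without 1 library, namely without any one of the 3 controls, EZH2 KO clone 1 or EZH2 KO clone 3 (highest adjusted p 0.126).

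APP itself moved the other way. It was 1440, 1399 and 1154 CPM in the controls of experiment 2, against 909.3, 843.3 and 759.2 in EZH2 KO and 650.4, 769.6 and 669.7 in SUZ12 KO clones 1, 2 and 3. The groups did not overlap. APP fell by 0.60 on the log2 scale in EZH2 KO (SE 0.16, adjusted p = 0.0229) and by 0.88 in SUZ12 KO cells (SE 0.16, adjusted p = 0.00228). The EZH2 KO call was lost in 4 of 12 fits, those without either WT clone library or without EZH2 KO clone 2 or 3 (adjusted p up to 0.0835).

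NCSTN, the subunit of gamma-secretase that screens substrates, was 80.0, 78.1 and 74.7 CPM in the controls of experiment 2. It was 50.03, 53.6 and 48.1 CPM in SUZ12 KO clones 1, 2 and 3, all lower, and 57.0, 76.8 and 49.2 in EZH2 KO clones, of which clone 2 lay among the controls. NCSTN fell by 0.56 in SUZ12 KO cells (SE 0.15, adjusted p = 0.0207), a call lost without either WT clone library or without SUZ12 KO clone 1 or 3 (adjusted p up to 0.0661). In EZH2 KO cells its log2 fold change was -0.28 (adjusted p = 0.238), and -0.48 without EZH2 KO clone 2 (adjusted p = 0.0298). ADAM10 was 146.8, 178.6 and 140.5 CPM in the controls and 108.9 to 121.3 CPM in the 6 PRC2 KO libraries, all lower, without passing the test (log2 fold change -0.36 in EZH2 KO and -0.37 in SUZ12 KO, adjusted p = 0.0996 and 0.0784). APLP2, the most widely expressed relative of APP, was 387.0 to 486.0 CPM in EZH2 KO and 351.6 to 508.3 CPM in SUZ12 KO cells against 326.7 to 383.0 in controls, and was called in neither.

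In the direct comparison of EZH2 KO with SUZ12 KO, 0 of 8 members were called by edgeR, where 0.00661% of all genes were called. DESeq2 also called 0 members. By edgeR's quasi-likelihood test BACE2 and APLP1 (log2 fold change -0.70) were the members with an unadjusted p under 0.05.

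**Figure D2:**
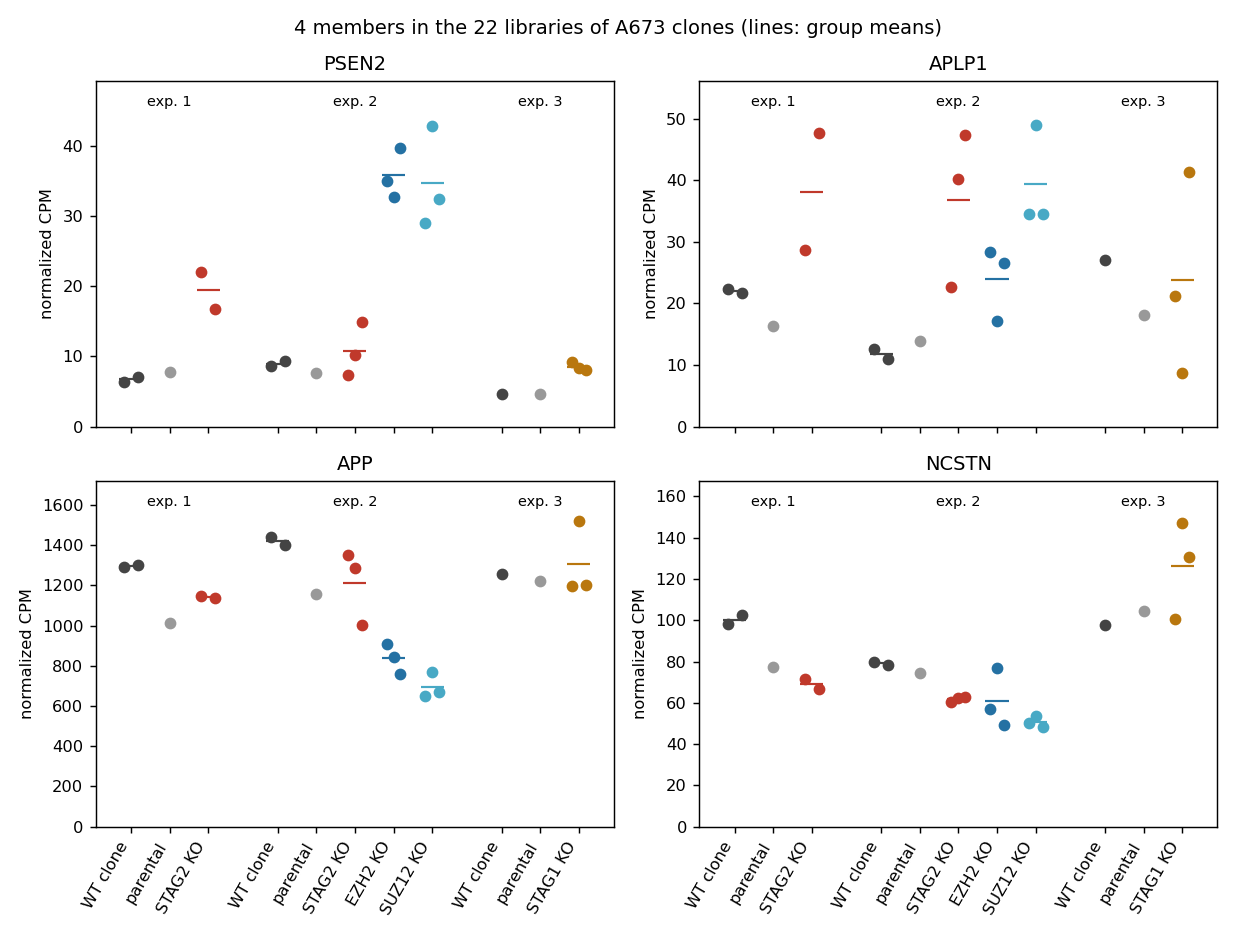
PSEN2, APLP1, APP and NCSTN in each of the 22 libraries of A673 clones and parental cells, as normalized CPM, by group and experiment, with 1 point per library and lines at the means of groups of 2 or 3. In experiment 2, PSEN2 and APLP1 lie above and APP below the controls in all 6 EZH2 KO and SUZ12 KO libraries, and PSEN2 in STAG2 KO cells lies further from its controls in experiment 1 than in experiment 2.

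In STAG2 KO cells 3 of the 8 members were called (2 higher, 1 lower), against 12.4% of all genes (6.67% higher, 5.76% lower). APLP1 and PSEN2 were higher and NCSTN lower, and the controls of experiment 2 are shared with the PRC2 comparisons. The median log2 fold change was -0.14 over the 8 members and 0.04 over all genes. The summed epithelial markers were 9.05 to 14.4 CPM in STAG2 KO cells against 22.7 to 39.1 CPM in their controls, and the summed Ewing sarcoma markers 1808 to 2658 against 2460 to 3385 CPM, and the part of either in these results was not tested.

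APLP1 was 22.4 and 21.6 CPM in the WT clone, 16.4 in parental cells, and 47.6 and 28.6 in STAG2 KO libraries 5 and 24 of experiment 1. In experiment 2 it was 40.2, 47.3 and 22.7 CPM in STAG2 KO clones 3, 5 and 2. Every KO library was above every control of both experiments, the nearest being STAG2 KO clone 2 (22.7) and the WT clone of experiment 1 (22.4). APLP1 rose 2.47-fold (log2 fold change 1.30 ± 0.24 SE, edgeR adjusted p = 0.00489) and was called without any single library, as it was without STAG2 KO clone 5 (1.14, adjusted p = 0.00234). In experiment 1 alone the log2 fold change was 0.90 (adjusted p = 0.0507), and in experiment 2 alone 1.60 (adjusted p = 0.0346). Tested by the interaction term, the difference between experiments was 0.72 ± 0.43 (SE, edgeR adjusted p = 0.261).

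PSEN2 was 6.43 and 7.07 CPM in the WT clone, 7.82 in parental cells, and 16.8 and 22.1 in STAG2 KO libraries 5 and 24 of experiment 1. In experiment 2 it was 10.3, 14.9 and 7.30 CPM in STAG2 KO clones 3, 5 and 2, and the last of these was below its controls. PSEN2 rose 1.83-fold over both experiments (log2 fold change 0.87 ± 0.25, adjusted p = 0.0446), with 1.43 in experiment 1 (adjusted p = 0.0117) and 0.39 in experiment 2 (adjusted p = 0.492). Tested by the interaction term, the difference between experiments was -1.02 ± 0.41 (SE, edgeR unadjusted p = 0.0301, adjusted p = 0.132). The call was kept in only 2 of 11 fits that left out 1 library, those without STAG2 KO clone 5 or 2 of experiment 2, and the adjusted p reached 0.107 in the others.

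NCSTN was 98.2 and 102.5 CPM in the WT clone, 77.3 in parental cells, and 66.5 and 71.8 in STAG2 KO cells of experiment 1. In experiment 2 it was 62.1, 62.8 and 60.4 CPM in STAG2 KO clones 3, 5 and 2. All STAG2 KO libraries were below all controls, of which the lowest was 74.7 CPM, and groups were apart for 8.3% of all genes. NCSTN fell by 0.35 on the log2 scale (SE 0.097, adjusted p = 0.0381), a call lost without either WT clone library of experiment 1 or 2 and without either STAG2 KO library of experiment 1 (adjusted p up to 0.109). The WT clone libraries of experiment 1 differed from each other far less than other replicate pairs, and with these summed into 1 library PSEN2 (adjusted p = 0.105) and NCSTN (adjusted p = 0.0834) were no longer called. APP, APLP2 and ADAM10 had log2 fold changes of -0.09, -0.19 and -0.19, with overlapping groups.

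**Figure D3:**
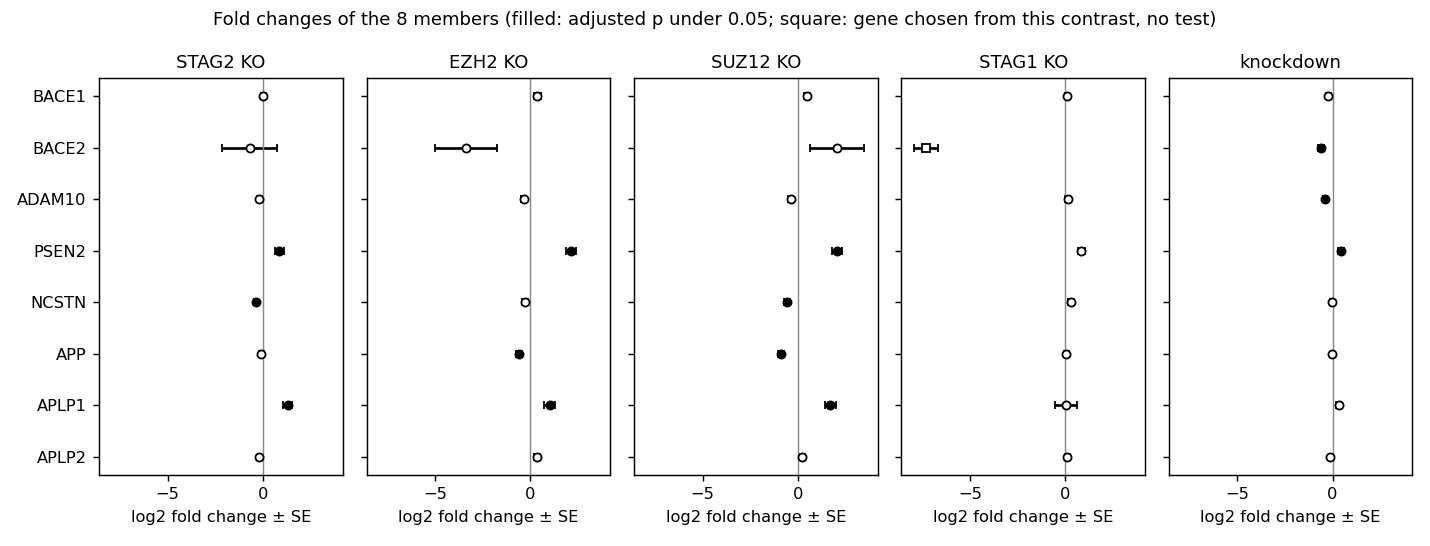
Log2 fold changes of the 8 members against controls in STAG2 KO, EZH2 KO, SUZ12 KO and STAG1 KO cells (edgeR) and after STAG2 knockdown (limma), with bars of 1 SE, filled where the adjusted p is under 0.05 and square where the gene was chosen from that contrast. BACE2 runs from -7.30 to 2.05 with SEs up to 1.63, while the other 7 members stay between -0.88 and 2.14.

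In STAG1 KO cells, 0 of the other 7 members were called by edgeR, where 5.27% of all genes were called (2.77% higher, 2.5% lower), and 1 of them, PSEN2, had an unadjusted p under 0.05. The median log2 fold change of these 7 was 0.12. The summed fibroblast markers were 729.1 to 886 CPM in STAG1 KO cells against 579.1 to 618.3 in controls, the neuron markers 233.8 to 336.7 against 190.4 to 226.3 and the epithelial markers 27.8 to 166 against 16.2 to 17.4, while the melanocyte markers were 0.712 to 1.07 against 2.33 to 3.56 CPM, and their part in these results was not tested. PSEN2 was 4.71 CPM in parental cells and 4.64 in the WT clone, against 9.28, 8.33 and 8.10 in the libraries labelled STAG1 KO 1, 5 and 7. All 3 KO libraries were thus above both controls, as groups were apart for 46.6% of all genes, and the log2 fold change was 0.85 ± 0.20 (SE, adjusted p = 0.063). By DESeq2 it was called (0.86, adjusted p = 0.01). APLP1 was 21.2, 8.77 and 41.3 CPM in these KO libraries, on both sides of its controls (18.1 and 27.1). NCSTN was 100.7, 147.2 and 130.7 CPM against 104.5 and 97.7, and without the library labelled STAG1 KO 1 it was called as higher (log2 fold change 0.45, adjusted p = 0.0437).

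The STAG2 KO effect minus the STAG1 KO effect was tested for the other 7 members, and 1 (NCSTN) was called, against 6.11% of all genes (2.36% higher, 3.75% lower). Its log2 fold change was -0.35 in STAG2 KO and 0.30 in STAG1 KO cells, a difference of -0.69 ± 0.18 (SE, adjusted p = 0.038). The call was lost in 11 of 16 fits that left out 1 library (adjusted p up to 0.195), among them those without either control of experiment 3. For PSEN2 the difference was -0.02 ± 0.40 (adjusted p = 0.988). BACE2 had -0.70 and -7.30 in these contrasts, which is given without a test.

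In the knockdown, 3 of the 8 members were called (1 higher, 2 lower), against 20.5% of all genes (9.54% higher, 11% lower). Beside BACE2 these were ADAM10 and PSEN2. ADAM10, the main alpha-secretase of many cells, was 266.9, 284.4 and 290.7 normalized reads in siC libraries 1, 2 and 3, and 223.0, 198.4 and 208.7 in siSTAG2 libraries 1, 2 and 3. It fell by 0.42 on the log2 scale (SE 0.093, limma adjusted p = 0.00185), with no overlap. PSEN2 was 52.4, 76.8 and 75.0 in siC and 88.8, 86.2 and 104.3 in siSTAG2 libraries, all higher, and rose 1.38-fold (log2 fold change 0.46 ± 0.16, adjusted p = 0.0468). This call was lost in 4 of 6 fits, without siC library 1 (adjusted p = 0.273) or any one siSTAG2 library (0.0728, 0.0727 and 0.194). APLP1 was 123.9, 135.8 and 124.0 in siC and 130.9, 180.8 and 176.8 in siSTAG2 libraries, which overlapped, and its log2 fold change was 0.33 (adjusted p = 0.0648). NCSTN, lower in the STAG2 KO clones, had a log2 fold change of -0.03 (adjusted p = 0.887).

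In the SK-N-MC pair, 3 of 8 members were past 2-fold (all higher without STAG2), against 21.5% of all genes (10.3% higher, 11.3% lower), and in the A4573 pair 1 was (lower), against 22% (7.49% higher, 14.5% lower). In SK-N-MC cells APLP1 was 35.9 CPM with STAG2 and 157.7 CPM without, a log2 difference of 2.13 (95% interval for counting error 2.04 to 2.23), and APP was 320.0 and 680.6 CPM, a difference of 1.09. In A4573 cells the same differences were 0.39 for APLP1 (18.1 CPM with and 23.7 without) and -0.29 for APP. PSEN2 differed by 0.53 in SK-N-MC and by -0.42 in A4573 cells, and APLP1 and APLP2 were the only members with the same sign in both pairs.

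**Figure D4:**
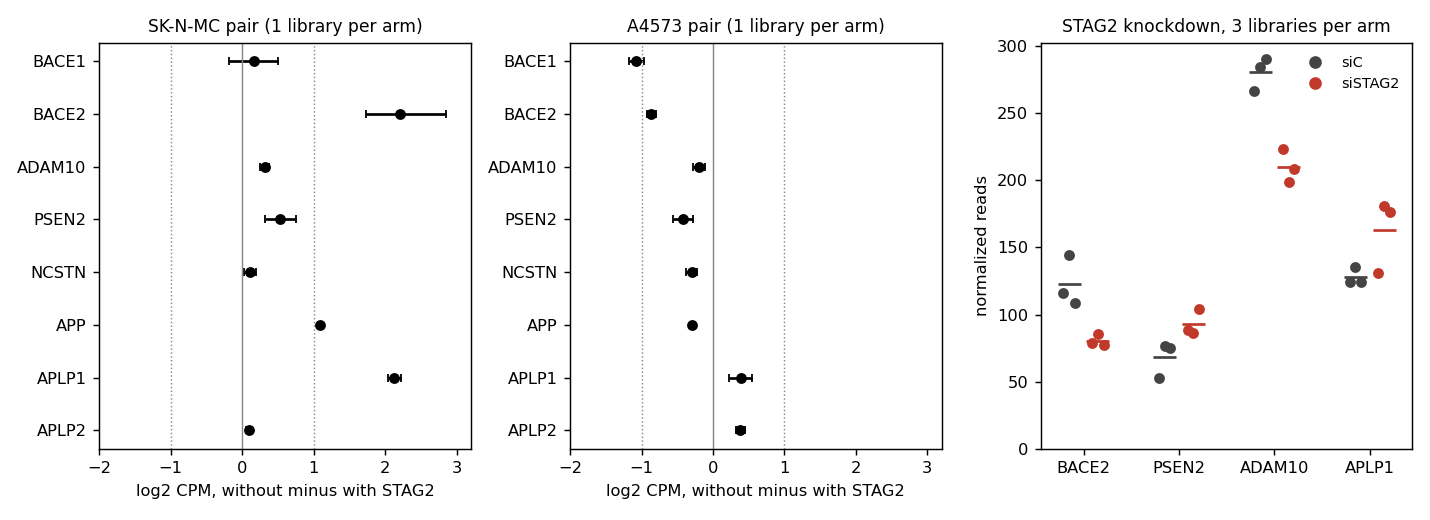
Left and centre, log2 CPM of the library without STAG2 minus the library with STAG2 in the SK-N-MC and A4573 pairs (1 library per arm), with 95% intervals for counting error only and dotted lines at 2-fold. Right, normalized reads of BACE2, PSEN2, ADAM10 and APLP1 in 3 siC and 3 siSTAG2 libraries with lines at the means, where BACE2 and ADAM10 are lower, PSEN2 is higher and APLP1 overlaps.

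The wider pathway was described with 80 genes in 7 lists, also chosen with earlier results of these data known, so their shares called are descriptions. In STAG2 KO cells 68 of them were tested, of which 2 rose and 12 fell (20.6% called, against 12.4% of all genes), with a median log2 fold change of -0.16 against 0.04 over all genes. Substrates of BACE1 or BACE2 made up 5 of the 12 that fell (of 13 tested). Among these, SEZ6L (log2 fold change -4.40, edgeR adjusted p = 0.00634) and SEZ6L2 (-2.25, adjusted p = 0.0101), seizure-related proteins of neurons, and VCAM1 (-2.67, adjusted p = 0.0231), a vascular adhesion molecule, had no overlap between groups. The other 2, named after their values were seen, were SEZ6 (-3.45, adjusted p = 0.00119, mean under 5 CPM) and the Notch ligand JAG1 (-0.56, adjusted p = 0.0331). Of 11 APP adaptors 3 fell, namely APBB1, which binds the cytoplasmic tail of APP (-1.44, adjusted p = 0.000293), DAB1, the adaptor of reelin signalling (-1.55, adjusted p = 0.00481), and ITM2C (-1.03, adjusted p = 0.0207). Of the trafficking genes only BIN1, a membrane-bending protein, was called (1 of 16, log2 fold change 0.99, adjusted p = 0.00171). Among gamma-secretase substrates CDH2 (-0.79, adjusted p = 0.0161) and NOTCH1 (-0.67, adjusted p = 0.0152) fell, while EFNB2, named after its value was seen, rose (1.77, adjusted p = 0.0383, groups overlapping, mean under 5 CPM). Of the clearance list ECE1 fell (-0.44, adjusted p = 0.0348), as did MMP9, a matrix metalloprotease named after its value was seen (-4.01, adjusted p = 0.000433, mean under 5 CPM). None of 4 tested genes for alpha-secretases (ADAM9, ADAM17) and their iRhom partners (RHBDF1, RHBDF2) was called by edgeR, where ADAM9 had an unadjusted p under 0.05.

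In the knockdown 63 genes of these lists were tested, of which 4 rose and 19 fell (36.5% called, against 20.5% of all genes), with a median of -0.10 against 0.01 over all genes. SEZ6L2 (log2 fold change -0.47, limma adjusted p = 0.000138), VCAM1 (-1.71, adjusted p = 5.98e-06) and APBB1 (-0.55, adjusted p = 5.13e-05) fell, and BIN1 rose (0.36, adjusted p = 0.00537). SEZ6L, named for its value in STAG2 KO cells, fell by 2.14 (adjusted p = 0.000492), and DAB1 by 0.51 (adjusted p = 2.34e-05). APH1B, a subunit of gamma-secretase, fell by 0.99 (adjusted p = 0.0008). Of 9 gamma-secretase substrates 4 fell, among them DCC, a netrin receptor (-0.56, adjusted p = 0.000365), and NOTCH2 (-0.49, adjusted p = 0.00101). Of 9 clearance genes 5 fell, among them the endothelin-converting enzyme ECE1 (-0.34, adjusted p = 0.00295) and cathepsin D, CTSD (-0.25, adjusted p = 0.00597). In the SK-N-MC and A4573 pairs (1 library per arm, no test), BIN1 was lower without STAG2 (log2 differences -0.39 and -0.81). SEZ6L2 (-1.01 and -1.31) and APBB1 (-0.69 and -0.38) were lower in both pairs too. SEZ6L (-6.06 and 1.19), DAB1 (2.81 and -1.65) and ECE1 (-0.38 and 0.12) differed in sign. In SK-N-MC, SEZ6L rested on 2 and 284 reads and DAB1 on 31 and 3, without and with STAG2.

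In EZH2 KO cells 10 of 71 tested genes of the lists rose and 5 fell (21.1% called, against 15.7% of all genes), and in SUZ12 KO cells 12 rose and 8 fell (28.2% called, against 20.6%). EFNB2, a ligand of Eph receptors cut by gamma-secretase, rose by 5.41 and 6.24 on the log2 scale (adjusted p = 0.000628 and 0.000221), while N-cadherin, CDH2, fell by 3.18 and 3.65 (adjusted p = 0.000416 and 0.000147). Among BACE substrates SEZ6L rose by 3.65 and 3.67 (adjusted p = 0.0017 and 0.00115) and the neural adhesion molecule L1CAM by 3.04 and 3.47 (adjusted p = 0.0122 and 0.00485). APBB1 rose by 1.08 and 1.11 (adjusted p = 0.00558 and 0.00355), and the adaptor APBA2 by 2.71 and 3.18 (adjusted p = 0.00751 and 0.00245). ACE, a peptidase of the clearance list, rose by 3.38 and 3.65 (adjusted p = 0.00247 and 0.00121), and the sorting receptor SORL1 by 1.93 and 1.66 (adjusted p = 0.00995 and 0.0157). In SUZ12 KO cells the alpha-secretase ADAM9 fell by 0.74 (adjusted p = 0.0323) and the sorting receptor SORT1 by 1.35 (adjusted p = 0.0151). The comparison of EZH2 KO with SUZ12 KO called 0 of the 71 by edgeR, and 4 had an unadjusted p under 0.05.

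In STAG1 KO cells 67 genes of the lists were tested, of which 4 rose and 3 fell (10.4% called, against 5.27% of all genes). APBA2, named after its value was seen, fell by 3.58 (edgeR adjusted p = 0.0268), and the peptidase ACE, named likewise, rose by 2.55 (adjusted p = 0.0252). Both had a mean under 5 CPM in this comparison. ADAM9 rose by 0.65 (edgeR adjusted p = 0.0277), CD44, an adhesion receptor shed by ADAM10, rose by 2.92 (adjusted p = 0.0491), and EPHB2 and NOTCH3 fell by 2.03 and 0.63 (adjusted p = 0.0423 and 0.0257). None of the 14 BACE substrates tested was called by edgeR in STAG1 KO cells, and 5 had an unadjusted p under 0.05, as did 3578 of all 14373 genes, among them PMEL (log2 fold change -1.80, adjusted p = 0.072). PMEL, the substrate of BACE2 in pigment cells, did not exceed 4.61 CPM in any A673 clone library, and the pigment cell gene TYR was at 0 in all of them.

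Of the genes within 1 Mb of BACE2 on chromosome 21, 8 were tested in at least 1 comparison. In STAG1 KO cells 1 of these was called, where 5.27% of all genes were called (2.77% higher, 2.5% lower). This was DSCAM, a neuronal adhesion molecule at chr21:40010999-40847158. It was 0.648 and 1.19 CPM in the controls and 0 in all 3 libraries labelled STAG1 KO. DSCAM passed the filter on low counts through the controls alone, so it could be called only as lower. The interferon-induced MX1, and RIPK4, PRDM15, C2CD2, ZBTB21 and ABCG1 had log2 fold changes of -0.67, 0.06, -0.09, -0.01, -0.64 and -1.49 there, without a call. In EZH2 KO and SUZ12 KO cells the non-coding gene LINC00479, at chr21:41711520-41715775, was called with log2 fold changes of 4.08 and 3.74. It was 0.126 to 0.280 CPM in the controls of experiment 2, 1.80 to 5.34 CPM in EZH2 KO and 1.355 to 4.93 CPM in SUZ12 KO cells. LINC00479 passed the filter on low counts through these KO libraries, so it could be called only as higher. In the knockdown RIPK4 rose by 0.44 (limma adjusted p = 0.00446). No neighbour was called in STAG2 KO cells by edgeR, where RIPK4 alone had an unadjusted p under 0.05 (0.0178).

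The genes whose pattern was most like that of BACE2 over the 22 libraries, centred on the controls of each experiment, were FAM110B (Pearson's r = 0.85), TCERG1L (0.85), TMEM186 (0.84), ZNF516 (0.84) and FBXW8 (0.84), out of 11040 genes. Among the members, r with BACE2 ran from -0.39 (NCSTN) to 0.36 (APLP1). The libraries share controls, experiments and clones of 1 line, and these values are descriptions.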

How the data were processed

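The study's methods describe RNA sequencing of non-directional libraries. The knockdown columns are marked FWD, and whether their libraries were prepared differently was not checked. Per the labels and the study's methods, the authors aligned reads to hg38 with TopHat2 (version 2.0.0), using SAMtools (version 0.1.16) and Bowtie (version 0.12.7), and deposited raw counts per gene symbol for the clones and the SK-N-MC and A4573 lines. The counting program was not given in the sources used here. For the knockdown the authors deposited a signal, namely gene counts divided by size factors, from which whole reads were recovered (all values whole within 1e-06). Spike-in entries (92, all at 0) were left out, and 56104 of 60107 identifiers matched a symbol.

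Counts were tested with edgeR 4.0.16 (quasi-likelihood, TMM, filterByExpr) in R 4.3.3, with experiment as a term where several were joined. The knockdown was tested with limma 3.58.1 on log2(value + 1) for genes with a mean of at least 10. All p-values were two-sided and adjusted by Benjamini-Hochberg over all genes tested, and a gene was called at an adjusted p under 0.05. Normalized CPM used TMM over the 22 clone and parental libraries together, and separately over the 4 of SK-N-MC and A4573, where log2 differences used a prior count of 2. The scripts were tested on simulated data. Alternatives were DESeq2 1.42.0, its size factors, other filters and pseudocounts, other controls, experiments alone, a replicate block, edgeR on recovered reads and each library left out. A term for a different STAG2 KO effect by experiment was added after the data were seen.

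The members and the pathway and marker lists were chosen with earlier results of these data known. Named genes are all members, up to 3 called genes per pathway list with the largest change and a mean of at least 5 CPM, tested neighbours of BACE2 within 1 Mb, and the 5 genes most correlated with it; others were named after their values were seen. Columns of STAG2 KO, STAG1 KO and the WT clone of experiments 1 and 3 are named by their own numbers or letters. Whether knockdown libraries came from separate cultures is not stated. Depth sets the precision of scarce transcripts such as BACE2, and a count of 0 allows up to 3 reads. The list of further gamma-secretase subunits is not reported here in full.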

Additional observations from a re-analysis of the deposited data

Results flagged for a closer look

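Among the 5 STAG2 KO libraries of experiments 1 and 2, clone 5 of experiment 2 stood far from the others in BACE2, with 27.6 normalized CPM. The other four ran from 0.111 to 2.47 CPM. Of 16 groups of members screened for a library far from the rest this was the only one. The screen used untransformed CPM with both experiments joined, and the log2 scale was not screened. Its chance rate of about 1 in 20 holds for normally distributed values only, so it cannot be applied to a gene as variable as BACE2.

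The effect of STAG2 KO on NCSTN differed from that of STAG1 KO, by -0.69 on the log2 scale in the test of the difference itself (edgeR adjusted p = 0.038). The STAG2 KO libraries were all lower than their controls and the STAG1 KO libraries overlapped theirs. With the filter on low counts left out the adjusted p was 0.0559.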

How the results depend on the processing

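Of 656 member values recomputed with 1 library left out, 577 kept their direction and side of the threshold, 45 lost a call, 6 gained one and 27 changed sign, and of 350 under other settings 322 kept both. The number of members called ran from 1 to 4 in STAG2 KO, 1 to 3 in EZH2 KO, 3 to 5 in SUZ12 KO, 0 to 1 in STAG1 KO, 0 to 1 for STAG2 KO against STAG1 KO, 0 to 0 for EZH2 KO against SUZ12 KO, 0 to 1 for WT clone against parental and 2 to 3 in the knockdown with 1 library left out. It was 1 in STAG2 KO with experiment 2 alone or with both WT clone libraries of experiment 1 added together, 1 in STAG1 KO by DESeq2, and 0 for STAG2 KO against STAG1 KO with no filter on low counts. Signs changed for ADAM10 between EZH2 KO and SUZ12 KO (-0.0185 by DESeq2, -0.0174 with its size factors), BACE1 in STAG2 KO (-0.0041 without the experiment term, -0.1527 in experiment 1), BACE2 in STAG2 KO (1.04 in experiment 2) and APLP1 in STAG1 KO (-0.2004 with the WT clone as the only control). With 1 library left out, log2 fold changes ran across 0 for BACE1 (-0.0867 to 0.0698) and BACE2 (-2.86 to 0.153) in STAG2 KO, APLP1 (-0.62 to 0.467) and APP (-0.0548 to 0.129) in STAG1 KO, PSEN2 for STAG2 KO against STAG1 KO (-0.209 to 0.148), ADAM10 (-0.0283 to 0.0538) and PSEN2 (-0.0566 to 0.235) between EZH2 KO and SUZ12 KO, PSEN2 (-0.132 to 0.144) and BACE1 (-0.209 to 0.0665) for WT clone against parental, and APP (-0.0543 to 0.0387) and NCSTN (-0.144 to 0.0857) in the knockdown. The cause was not tested.

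Calls over all genes moved by more than 1.5 times from 1687 in STAG2 KO to 2621 by DESeq2, 3663 in experiment 1, 494 in experiment 2 and 1053 to 4048 with 1 library left out. They moved from 757 in STAG1 KO to 1943 by DESeq2, 0 with the WT clone as the only control and 0 to 1310 with 1 library left out. STAG2 KO against STAG1 KO went from 898 to 1541 by DESeq2 and 195 to 1860 with 1 library left out, EZH2 KO against SUZ12 KO from 1 to 22 by DESeq2 and 5 without a filter, WT clone against parental from 385 to 631 by DESeq2, 741 without a filter and 98 to 953 with 1 library left out, EZH2 KO from 2377 to 1441 with the WT clone as the only control and 1169 to 3885 with 1 library left out, and SUZ12 KO from 3112 to 1874 to 4797 with 1 library left out.

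Same-numbered libraries did not deviate together in every pair (correlations 0.0257, 0.0372 and 0.00402 in the knockdown, -0.17, 0.432 and 0.404 between EZH2 KO and SUZ12 KO), so the numbers were not taken as pairs. With a replicate block, 7 members were called in SUZ12 KO, with BACE1 (adjusted p = 0.024), BACE2 (0.0371) and ADAM10 (0.0437) gained, APLP1 was called in the knockdown (adjusted p = 0.035), and calls over all genes were 4114 in EZH2 KO, 5159 in SUZ12 KO and 3 between them.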
